A study of Mus musculus with 9 samples.

Results

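The 10 genes described here encode parts of the leukemia inhibitory factor (LIF) pathway of mouse embryonic stem cells (mESCs) and inhibitors of the SOCS family. The members are Lifr, Il6st, Jak1, Jak2, Stat3, Socs1, Socs2, Socs3, Socs6 and Cish. They were taken by name from 49997 RefSeq genes of the mouse build GRCm38, the same assembly as mm10, and all 10 were found there. Every peak of N6-methyladenosine (m6A) within 500 bp of their gene bodies was collected from 2 peak lists.

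The lists came from m6A-RIP-seq of wild-type mESCs, labelled WT with the background Rosa26:CRE, Bir ligase and grown on gelatin with LIF conditioned medium. In this assay an antibody to m6A pulls down fragments of oligo-dT-selected mRNA before sequencing. The series holds 9 libraries, namely 2 immunoprecipitations each of Mettl3KO, Zc3h13KO and WT cells and 1 input of each genotype, and the 7 libraries other than the WT immunoprecipitations were not analysed here. The labels call the 2 WT samples replicates, without saying whether they came from separate cultures.

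LIF binds its receptor together with gp130, the kinases Jak1 and Jak2 bound to their tails phosphorylate Stat3, and Stat3 then enters the nucleus and switches on genes that keep mESCs self-renewing. Suppressors of cytokine signaling, the SOCS proteins, close the loop, since many of them are induced by the STAT proteins and then block the receptors or the kinases. On mRNA, m6A is laid down cotranscriptionally by the Mettl3 complex, is found most often in long exons and around the stop codon and 3′ UTR, and is known to shorten the life of many transcripts.

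MACS2 had been run on each immunoprecipitation by itself against input. Each peak has a summit, a fold enrichment over input and a −log10 q, where q is the p-value adjusted for multiple testing. Replicate 1 had 22531 peaks and replicate 2 had 5040, so a gene missing from the second list was missing from the much shorter one. The median peak of replicate 1 was enriched 5.39-fold (−log10 q 28.9), and that of replicate 2 6.35-fold (−log10 q 7.54). The 2 lists are therefore read here by the place of a peak within its own list. Inside the list of replicate 1 the peaks carry a sample name other than WT, whose meaning none of the sources used here explains, so that list is taken as WT from its label alone. No read counts came with the lists, so the depth is unknown. Whether a peak depends on Mettl3 was not tested, since the Mettl3KO libraries were not analysed. Peaks do not measure expression, so neither the identity of the cells nor the mRNA level of these genes could be checked, and a gene without a peak may simply not be expressed.

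In replicate 1, 9 of the 10 genes had a peak, against 41.3% of the 21900 protein-coding genes. In replicate 2, 2 of the 10 did, Socs1 and Cish, against 16.9% of the protein-coding genes. The same 2 genes were those with a peak in both lists, against 16.1% of the protein-coding genes. The count in replicate 1 was above the share for all genes, and the counts in replicate 2 and in both were near it. The 10 genes were chosen with earlier results of these data known, so these counts are a description. Stat3 was the gene with no peak in either list. The gene bodies of the 10 had a median length of 38105 bp, against 17146 bp for all protein-coding genes, and the part of length in these counts was not tested.

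**Figure D1:**
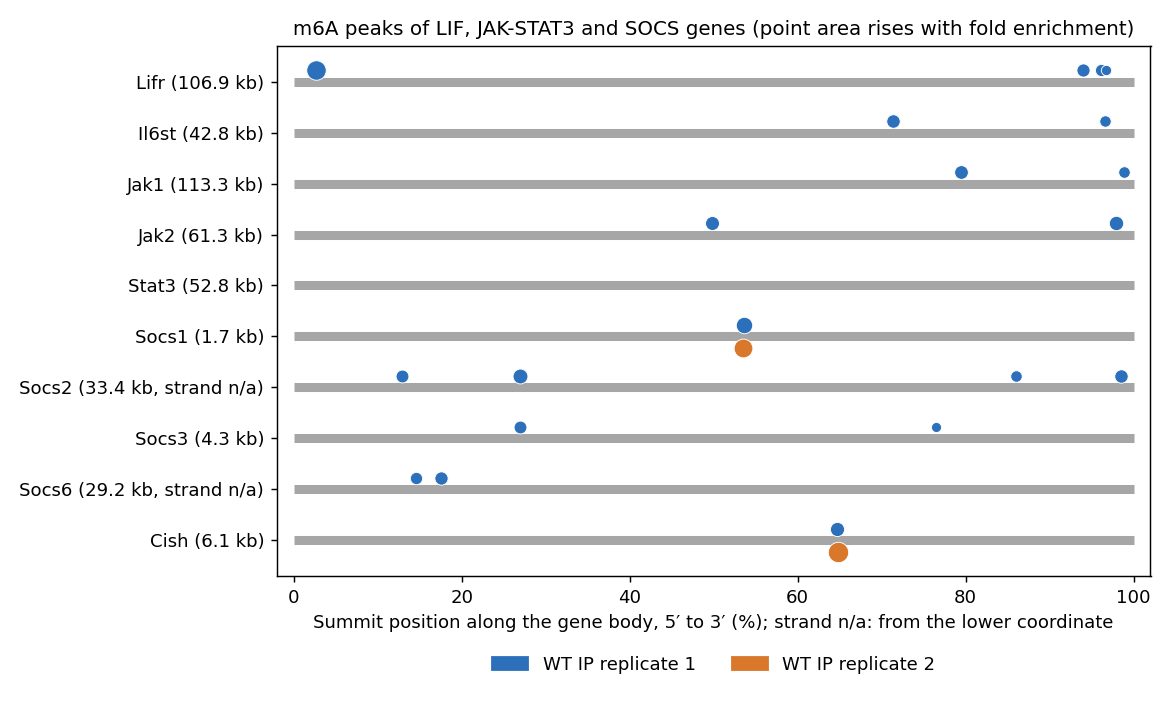
Summits of all peaks within 500 bp of the 10 genes, placed along each gene body in percent of its length (lengths in kb after the symbols), in 5′ to 3′ direction except for Socs2 and Socs6, which run from the lower coordinate. Blue points above the grey bar are WT replicate 1 and orange points below it WT replicate 2, with a larger area for a higher fold enrichment. Replicate 2 has points at Socs1 and Cish, and Stat3 has none.

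Sequence at the transcript starts of 2 of the SOCS family genes is shown first. Socs3 was the member with a peak at its annotated start and Cish the one with a pair of STAT-type motifs there. The RefSeq table of GRCm38.p6 held 9 start windows for 8 of the 10 genes, each with 250 bases before and 50 after the start. Socs2 and Socs6 had no entry. The stretches below give 160 bases before and 30 bases after the annotated start, 5′ to 3′, with matches to TTCNNNGAA, the motif that STAT dimers recognize, in capitals.
Socs3 (chr11:117969337-117969526, minus strand): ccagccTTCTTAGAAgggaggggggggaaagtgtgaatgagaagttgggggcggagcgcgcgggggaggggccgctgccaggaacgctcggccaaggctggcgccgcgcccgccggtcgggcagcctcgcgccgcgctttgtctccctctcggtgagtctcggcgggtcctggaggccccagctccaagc
Cish (chr9:107296499-107296688, plus strand): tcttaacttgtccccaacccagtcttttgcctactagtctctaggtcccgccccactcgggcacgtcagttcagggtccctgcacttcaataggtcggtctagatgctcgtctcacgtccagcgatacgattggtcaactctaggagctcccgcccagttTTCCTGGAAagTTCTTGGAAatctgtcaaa

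The motif reads the same on both strands. Cish had 2 matches, which did not overlap, at positions 1 to 9 and 12 to 20 counted from the annotated first base of the transcript. Socs3 had 1 match, at positions -154 to -146. This match lies inside the gene body, whose 5′ end is 970 bp before the annotated start. The other 7 windows of the members had none. Of all 32851 windows of 300 bases, 8.30% held at least 1 match and 0.457% held 2 or more. The core letters of the m6A consensus, GGAC, were searched on the transcribed strand in the 50 bases after the start. They occurred once at Il6st, not at the other starts of the members, and in 18.9% of all windows. A match is a description of the letters and does not show that a factor binds or that an adenosine is methylated there.

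The 2 receptor genes carried peaks in replicate 1 only, mostly toward the 3′ end of the gene. Lifr encodes the LIF receptor and lies on chromosome 15 from 7090610 to 7197489 on the plus strand. It had 4 peaks in replicate 1 and 0 in replicate 2. The first Lifr peak ran from 7093318 to 7093679 and was enriched 11.4-fold, the most of the 20 peaks of the members (−log10 q 33.1). Its summit was 2850 bp from the 5′ end of the gene body, and 36112 bp before the first of the 2 transcript starts in the promoter table. The other 3 Lifr peaks lay together near the other end of the gene. The one from 7190466 to 7191824 was 1359 bp wide and enriched 4.36-fold, and its −log10 q of 94.5 was higher than 87.8% of the list. The remaining Lifr peaks began at 7193087 and 7193694, with a gap of 109 bp between them, and were enriched 3.49-fold and 2.06-fold. Their summits lay 6482, 4150 and 3519 bp before the 3′ end of Lifr. The highest fold enrichment and the highest −log10 q of Lifr thus belonged to peaks at opposite ends of the gene.

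Il6st encodes gp130, the signal-transducing subunit that LIF shares with the interleukin-6 family, and lies on chromosome 13 from 112464070 to 112506860 on the plus strand. In replicate 1 it had 2 peaks, and in replicate 2 it had 0. The Il6st peak from 112494377 to 112494683 was enriched 4.65-fold (−log10 q 47.0), with its summit 12284 bp before the 3′ end. The peak from 112503985 to 112505608 was 1624 bp wide, broader than 96.0% of the peaks of replicate 1, and was the broadest of the members. It was enriched 2.91-fold (−log10 q 54.7), and its summit lay 1470 bp before the 3′ end.

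Both kinase genes had the same arrangement, a narrow peak within the gene and another one near its 3′ end, both in replicate 1. Jak1, a tyrosine kinase bound to gp130 and the LIF receptor, lies on chromosome 4 from 101151974 to 101265282 on the minus strand. Its peak near the 3′ end, from 101153127 to 101153762, was enriched 3.01-fold (−log10 q 68.3), with the summit 1366 bp before the 3′ end. The Jak1 peak within the gene was 307 bp wide and enriched 4.88-fold (−log10 q 35.0). Jak2, the related kinase that serves many cytokine receptors, lies on chromosome 19 from 29251803 to 29313095 on the plus strand. Its peak near the 3′ end, from 29311580 to 29312005, was enriched 5.49-fold (−log10 q 50.4), with the summit 1254 bp before the 3′ end. The Jak2 peak in the middle of the gene was 313 bp wide and enriched 5.09-fold (−log10 q 19.7). In replicate 2 neither kinase gene had a peak.

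Stat3, the transcription factor that carries the LIF signal into the nucleus, lies on chromosome 11 from 100886806 to 100939594 on the minus strand, and had 0 peaks in either replicate. The nearest peak of replicate 1 lay 30635 bp from the gene body, at Cavin1, and was enriched 2.42-fold. In replicate 2 the nearest lay 118054 bp away, at Ghdc, and was enriched 7.09-fold. The gene body of Stat3, 52789 bp, is longer than 78.5% of protein-coding genes.

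The SOCS family held both genes found in the 2 lists. Socs1 encodes an inhibitor that binds the JAK kinases directly and is a short gene of 1729 bp, on chromosome 16 from 10783808 to 10785536 on the minus strand. In replicate 1 its single peak ran from 10783964 to 10785261 and covered 75.1% of the gene body. It was enriched 7.69-fold, and its −log10 q of 179.0 was rank 439 of 22531 and the highest among the members. In replicate 2 the Socs1 peak ran from 10784378 to 10785194, wholly inside that of replicate 1, and was enriched 10.4-fold (−log10 q 19.6). The summits of the replicates were 2 bp apart, 927 and 925 bp from the 5′ end.

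Cish, an SH2 protein induced by cytokines that act through STAT5, lies on chromosome 9 from 107296659 to 107302784 on the plus strand. Its peak in replicate 1 ran from 107300327 to 107301228 and was enriched 5.28-fold (−log10 q 68.0). In replicate 2 the Cish peak ran from 107300370 to 107301086, also wholly inside that of replicate 1, and was enriched 12.6-fold (−log10 q 18.4). The summits were 12 bp apart, against a median of 10 bp over the 4684 overlapping pairs of peaks in the lists. They lay 3960 and 3972 bp after the annotated start, so the peak did not reach the motifs printed above. Within its list, the fold enrichment of Cish was higher than 94.1% of the peaks in replicate 2 and higher than 48.9% in replicate 1. For Socs1 these places were 88.2% and 72.9%. By −log10 q, Cish stood higher than 92.8% of replicate 2 and 79.3% of replicate 1, and Socs1 higher than 94.6% and 98.1%. Ranked by fold enrichment, the 4684 overlapping pairs had a median place of 50.1% among the peaks of replicate 2 and 56.6% among those of replicate 1.

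**Figure D2:**
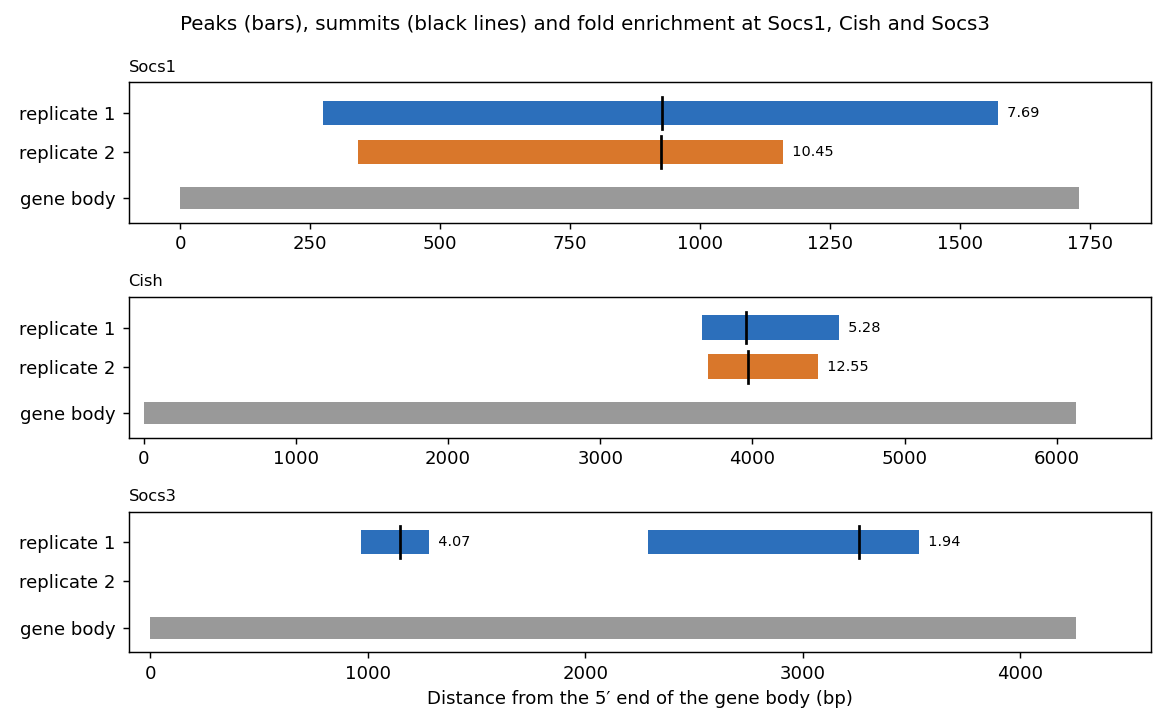
Peaks at Socs1, Cish and Socs3 by distance from the 5′ end of the gene body in bp. Blue bars are peaks of WT replicate 1, orange bars those of WT replicate 2, black lines the summits, grey bars the gene bodies, and the numbers beside the bars the fold enrichment over input. The peaks of the replicates coincide at Socs1 and Cish, and Socs3 has 2 peaks in replicate 1 and none in replicate 2.

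Socs3, the main feedback inhibitor of gp130, lies on chromosome 11 from 117966079 to 117970336 on the minus strand and had 2 peaks in replicate 1 and 0 in replicate 2. The Socs3 peak from 117969057 to 117969366 ended on the annotated first base of the transcript, the base that follows the first 160 of the printed stretch. That base lies 970 bp inside the gene body, counted from its 5′ end. The peak covered all 50 transcribed bases of the start window, and its summit lay 179 bp after the start. It was enriched 4.07-fold, and its −log10 q of 73.4 was higher than 81.4% of the list. The other Socs3 peak ran from 117966803 to 117968046 and was 1244 bp wide and enriched 1.94-fold, the least of the 20 peaks of the members (−log10 q 40.4). Its summit lay 1000 bp before the 3′ end. No other start window of the members overlapped a peak in either replicate.

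Socs2, an inhibitor of growth hormone signaling, and Socs6, a SOCS protein that acts on receptor tyrosine kinases, had peaks in replicate 1 and 0 in replicate 2. Socs2 lies on chromosome 10 from 95383903 to 95417321 and had 4 peaks, enriched 4.10, 6.01, 2.97 and 4.57-fold in order of coordinate, with a −log10 q of at most 42.5. They were spread over the gene, from 4295 bp above its lower coordinate to 518 bp below its higher one. The last Socs2 peak also lay within 500 bp of the lncRNA gene 5730420D15Rik, and it was the single peak of the members that could belong to another gene. Socs6 lies on chromosome 18 from 88865169 to 88894364 and had 2 peaks separated by 72 bp, from 88869238 to 88870112 and from 88870185 to 88870570. They were enriched 3.63-fold and 4.43-fold. The −log10 q of the first Socs6 peak, 96.2, was higher than 88.2% of the list and second to that of Socs1 among the members.

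The 20 peaks of replicate 1 at these genes had modest fold enrichment and high −log10 q for their list. Their fold enrichment ran from 1.94 to 11.4 with a median of 4.40, against 5.39 for all peaks, and 4 of the 20 lay above that median of the list. Their −log10 q ran from 15.0 to 179.0 with a median of 46.0, against 28.9, and 17 of the 20 lay above the median of the list. Their width ran from 299 to 1624 bp with a median of 406 bp, against 445 bp for all peaks, and 4 were wider than 1000 bp, against 13.6% of all peaks. These are descriptions of peaks that share 9 transcripts, and no test was run on them.

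**Figure D3:**
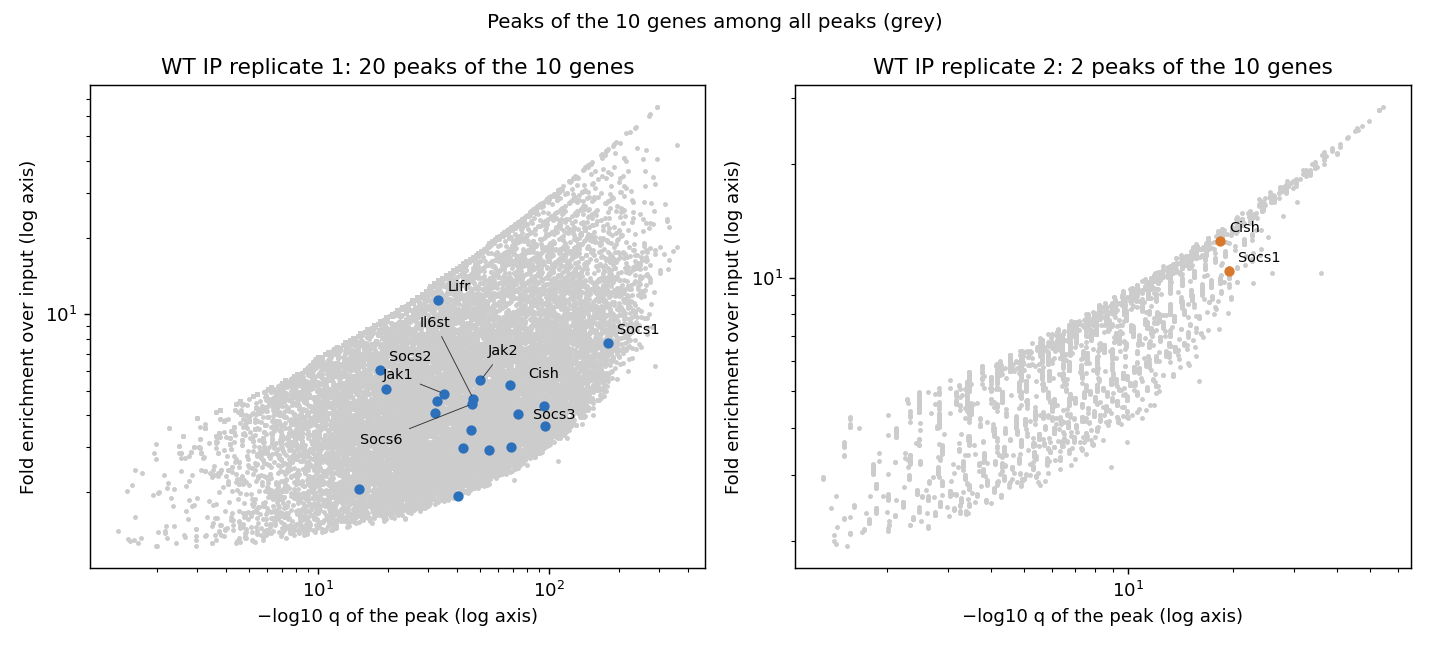
Fold enrichment over input against −log10 q, both on log axes, for all peaks (grey) and the peaks of the 10 genes (colored), in WT replicate 1 on the left and WT replicate 2 on the right. Each gene is named at its peak of highest fold enrichment. In replicate 1 the 20 peaks reach from a fold enrichment of 1.94 to 11.4, and in replicate 2 the 2 peaks lie at 10.4 and 12.6.

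Strand was known for 7 of the 9 genes with a peak. Of their 14 peaks in replicate 1, 11 had the summit beyond the middle of the gene body, against 67.5% of the 16737 summits at protein-coding genes with known strand. A summit in the last 2000 bp of the gene body was found in 5 of the 7, namely Il6st, Jak1, Jak2, Socs1 and Socs3, against 50.4% of 7163 such genes with a peak. Socs1 is shorter than that distance as a whole. For Cish the distance to the 3′ end was 2165 bp and for Lifr at least 3519 bp. Exons and stop codons were not part of the reference table, so peaks could not be assigned to coding sequence, UTR or intron.

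Of the 20 member peaks of replicate 1, 2 were overlapped by a peak of replicate 2, which is 10% (95% exact binomial interval 1.23% to 31.7%, counting error only), against 19.1% of all peaks of replicate 1. That interval treats the 20 peaks as independent, although they come from 9 genes. Both member peaks of replicate 2 were overlapped by replicate 1, against 92.1% of all its peaks. By −log10 q, 6 of the 20 were among the 5040 highest of replicate 1, 1 each of Socs1, Socs6, Lifr, Socs3, Jak1 and Cish. Their ranks were 439, 2663, 2741, 4180, 4636 and 4662. Cish, the last of these, was found in replicate 2, and Socs6, Lifr, Socs3 and Jak1 were not. These 4 peaks were enriched from 3.01 to 4.36-fold, below the 5.28 of Cish and the 7.69 of Socs1. Replicate 2 overlapped 49.1% of all these 5040 peaks. With the 5040 divided into 4 groups of 1260 by fold enrichment after the values were seen, it overlapped 41.3% of the lowest group, which held those 4 peaks. It overlapped 49.2% of the next group, which held Cish, 54.0% of the one after, which held Socs1, and 52.1% of the highest. Member peaks of lower −log10 q but higher fold enrichment than Cish, at Lifr (11.4), Socs2 (6.01) and Jak2 (5.49), were not overlapped either. Whether fold enrichment bears on the overlap was not tested.

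Other genes of the pathway were taken from a wider list of 52, all found in the gene table. Of these, 36 had a peak in replicate 1 (69.2%, against 41.3% of protein-coding genes) and 19 had a peak in both replicates (36.5%, against 16.1%), and in each of the 19 a peak of replicate 2 overlapped one of replicate 1. The list was drawn up with earlier results of these data known, so these shares are a description and were not tested. The protein-coding genes beside it include those not expressed in these cells. Of the 94 peaks of the list in replicate 1, 15 also lay within 500 bp of another gene, and 3 of the 26 in replicate 2 did. Among 12 ligands and other receptors, Lif, Clcf1 and Il6ra had a peak in both, and Osm had one in replicate 1. The remaining 8, Il6, Il11, Ctf1, Ctf2, Cntf, Osmr, Il11ra1 and Cntfr, had none. Lif, the cytokine itself, had 5 peaks in replicate 1 and 2 in replicate 2, and its highest, at different sites, were enriched 10.5-fold and 7.55-fold. The highest peaks of Clcf1, a ligand of the CNTF receptor, had 19.9 and 8.61, but also lay at 2 other annotated genes. Il6ra, the interleukin-6 receptor subunit that pairs with gp130, had 5 peaks in replicate 1 and 1 in replicate 2, with 17.2 and 8.03 for its highest.

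Of the other kinases, Jak3 had a peak in both replicates and Tyk2 in replicate 1. The Jak3 peak of replicate 2 also lay at Insl3. Of 5 other STAT genes, Stat6 had a peak in both, Stat2 had 4 in replicate 1, and Stat4, Stat5a and Stat5b had none, like Stat3. The Stat6 peaks that overlapped lay beyond the gene body and also at Nab2. Of the other SOCS genes, Socs5 and Socs7 had a peak in both and Socs4 in replicate 1. Socs7 had the highest peak of the 3 in replicate 1, enriched 17.9-fold (−log10 q 288.2), while its replicate 2 peak at the same place was enriched 3.00-fold (−log10 q 3.80).

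Of 8 phosphatase and PIAS genes, Ptpn1 and Pias3 had a peak in both replicates, 5 had one in replicate 1 only, and Ptpn6 had none. Pias3, an inhibitor of STAT3, was enriched 3.95-fold in replicate 1 and 10.1-fold in replicate 2. Of 8 adaptors and regulators, Gab1, Sh2b1, Sh2b2 and Sh2b3 had a peak in both, Sos1 and Stam in replicate 1, and Grb2 and Stam2 had none. Sh2b3, an adaptor that restrains JAK2, was enriched at most 5.99-fold in replicate 1 and 11.8-fold in replicate 2, at different sites. The replicate 1 peak of Sh2b3 that overlapped the one of replicate 2 was enriched 4.78-fold. Of 14 known targets of STAT3, Junb, Bcl3, Gbx2, Myc, Zfp36 and Icam1 had a peak in both, and Pim2 and Tfcp2l1 had none. The replicate 2 peak of Icam1 lay wholly outside the gene body, within 500 bp of its 5′ end. Gbx2, a homeobox factor that LIF induces in mESCs, had a highest peak enriched 6.24-fold in replicate 1 and 10.3-fold in replicate 2. The highest replicate 1 peak of Gbx2 also lay at LOC102637806. Pim1, Pim3, Klf4, Klf5, Mcl1 and Sall4 had peaks in replicate 1 only. The median of the highest fold enrichment per gene in replicate 1 was 5.28 for the 9 members with a peak and 5.07 for the 36 genes of the wider list, within which it ran from 2.90 for the STAT3 targets to 14.2 for the ligands and receptors.

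**Figure D4:**
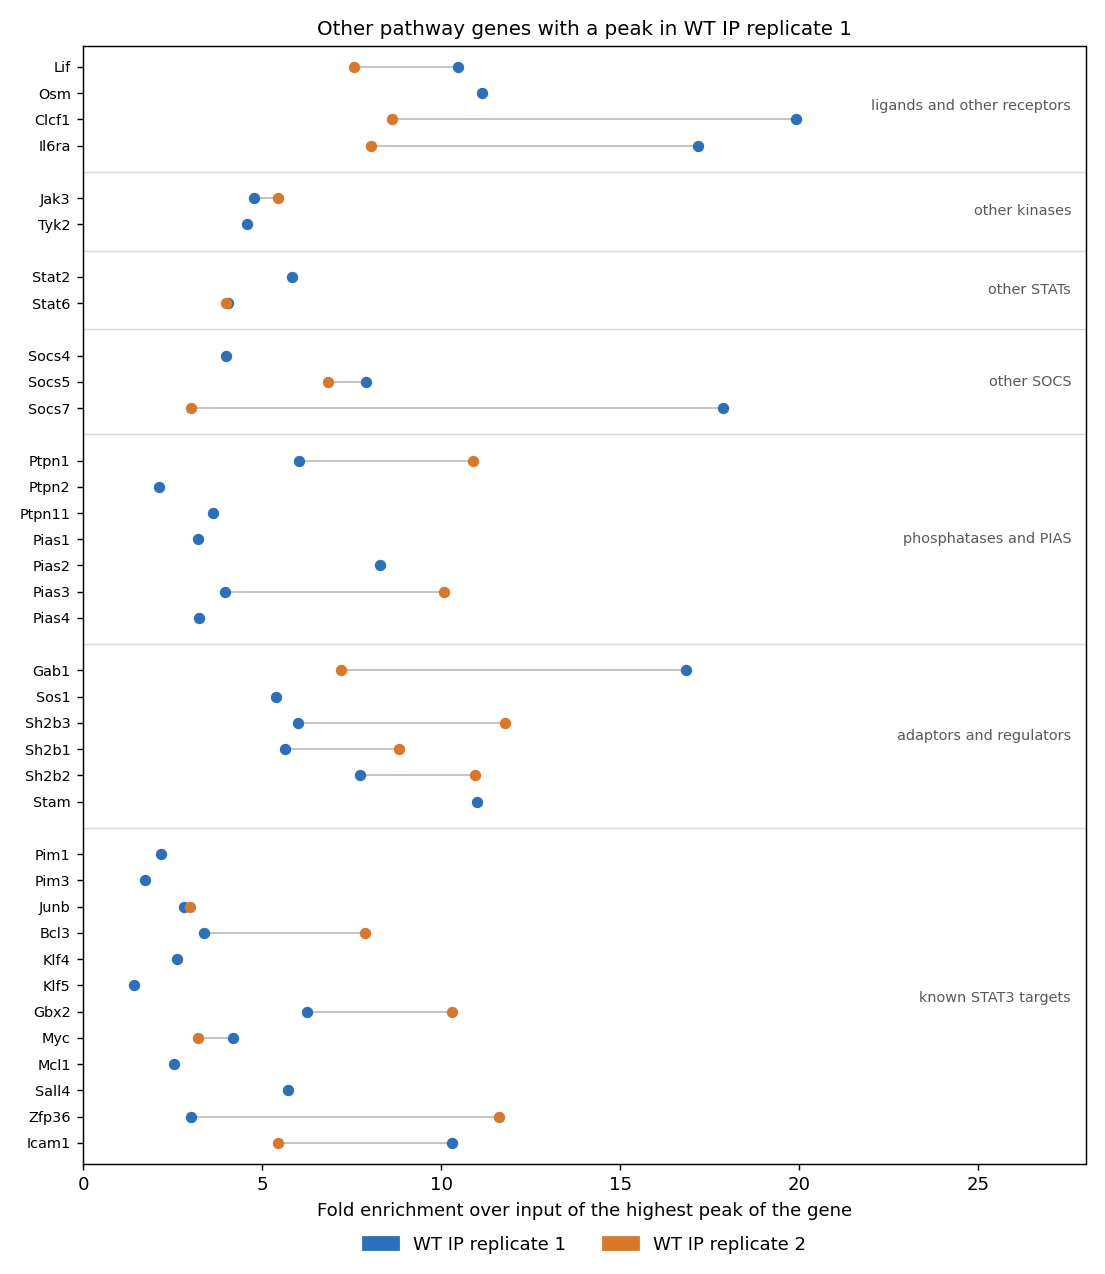
Fold enrichment over input of the highest peak of each of the 36 other pathway genes with a peak in WT replicate 1 (blue) and, where there was one, in WT replicate 2 (orange), by role. A grey line joins the replicates of a gene, whose highest peaks need not lie at the same site. Orange points mark the 19 genes with a peak in both replicates.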

How the data were processed

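m6A-RIP-seq peak lists of the 2 WT immunoprecipitations were used. The authors aligned reads to mm10 and called peaks with MACS2 at default parameters, each replicate against input without pooling; Bowtie and SAMtools are also named in the submitters' processing notes, without versions. The series holds 1 WT input, so a WT control would be common to both replicates. The input actually used for each replicate and the handling of duplicates and strand are not given in the sources used here. Of the deposited columns, the fold enrichment is a ratio over input and the −log10 q was used as deposited by the authors; the deposited score was not used, nor was the −log10 p. Positions are printed from 1.

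Peaks were assigned to every RefSeq gene body of GRCm38.p6 within 500 bp and shared when they overlapped by 1 bp. Strand and start windows came from the RefSeq promoter table. Overlaps differed in 0 cases from an exhaustive comparison on simulated data with 150 genes. Intervals are 95% exact binomial. No set test was run. The wider list of 52 leaves out 1 gene of the list as first drawn up, which is not reported here. Members and lists were chosen with earlier results of these data known. Named were all 10 members with every peak, genes of the wider list with a peak in both replicates or with none by name, and others of it by role; genes outside both only where a peak also lay at them, except Cavin1 and Ghdc, chosen after the values were seen as those nearest to Stat3. Computations ran in Python 3.11.15 with pandas 2.3.3 and numpy 2.4.6, intervals in scipy 1.17.1, and figures in matplotlib 3.10.9.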

Additional observations from a re-analysis of the deposited data

How the results depend on the processing

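The 2 genes with a peak in both replicates stayed 2 when peaks needed a −log10 q of 5 or a fold enrichment of 4, at distances of 0 and 2000 bp, with the nearest gene only, with an overlapping peak required, and with replicate 1 reduced to the 5040 peaks of highest −log10 q. Of these settings, only the reduction could have removed either gene. In both lists, the peaks of Socs1 and Cish had a −log10 q of at least 18.4 and a fold enrichment of at least 5.28. They lay inside their gene bodies, near no other gene, and overlapped between the replicates. From 1 replicate alone the count of genes ranged from 2 to 9. The 20 peaks of replicate 1 became 13 when a fold enrichment of 4 was required and 6 after the reduction, which by its construction leaves fewer peaks. After it, 33.3% of the member peaks of replicate 1 were overlapped by replicate 2, against 49.1% of all the 5040 peaks; without it the shares were 10% and 19.1%. The other 45 recomputed values stayed within 1.5 times of the reported count or inside the interval of the reported share. Among them, the 9 members with a peak in replicate 1 became 6 after the reduction, at the limit of that rule. The intervals were wide, 1.23% to 31.7% for replicate 1 and 15.8% to 100% for replicate 2. Some values could not change, as the lowest −log10 q of the member peaks in replicate 1 was 15.0, above the setting of 5. No paired analysis was possible because knockout immunoprecipitations were not analysed here, so groups with matching replicate numbers could not be set against each other. Motif counts at summits and positions by exon were not run for want of a genome and exons. Without read counts, the limits that depth sets were not measured.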
